A study of Homo sapiens with 6 samples.

Results

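The epidermal growth factor (EGF) family was followed here through 9 of its genes in 6 RNA-seq libraries of MRC5 cells, human embryonic lung fibroblasts immortalised with hTERT. The 9 genes were chosen by name as ligands (HBEGF, AREG, EREG, TGFA and NRG1), receptors (EGFR, ERBB2 and ERBB3) and a feedback inhibitor (ERRFI1), and each had a row in both deposited tables, which hold 25368 different symbols. The first table has cells infected for 2 h with adenovirus and cultured for 3 days, the virus carrying an empty vector in the control, FLAG-tagged wild-type JUN in JUN WT, or JUN with both JNK phosphorylation sites changed to alanine in JUN AA. The second table has cells without treatment (MRC5), induced cancer-associated fibroblasts (iCAFs) made by 7 days in serum-free medium conditioned by MDA-MB-231 breast cancer cells, and iCAFs given the JNK inhibitor JNK-IN-8 at 1 µM for 48 h (iCAFs+JNKi), for which DMSO is the labelled vehicle. The first comparisons ask what JUN with and without its phosphorylation sites does to fibroblasts, and the second what tumour medium does and what JNK inhibition changes in it. The MRC5 library is also called untreated, and the iCAFs+JNKi library is also called iCAFs after JNKi. Both experiments used 1 line, and the medium of the untreated MRC5 cells during those 7 days is not given in the sources used here, so serum and tumour factors cannot be told apart in iCAFs against MRC5.

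EGF-family ligands are made as membrane-anchored precursors, and metalloproteases of the ADAM family release their EGF-like domain. A ligand joins receptors into pairs, and the paired kinases feed the RAS-ERK and PI3K-AKT chains. HBEGF, AREG, EREG and TGFA bind EGFR, NRG1 binds ERBB3 and ERBB4, and ERBB2 has no known ligand of its own but pairs with the others. ERRFI1, also called MIG6, binds the EGFR kinase domain and blocks it. In tissue, fibroblasts are known as a source of such ligands for nearby epithelial cells.

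Levels are FPKM as deposited, a unit that divides fragments by exon length and library total, so genes can be ordered within a library. Differences are on the log2(FPKM + 1) scale, which understates those of low genes, and were taken only within a table. A gene counted as 2-fold higher or lower at a difference of 1, provided that its FPKM averaged 1 or more across the 3 libraries of the table (10311 genes in the first table and 11780 in the second). Each condition had 1 library, so no value has a replicate error, no test between conditions was possible and no p-value is given. The number of reads is not given in the sources used here. Summed FPKM lay between 359944 and 613184. JUN, which checks the labels, was at 25.5 FPKM with the empty vector, 4543 with JUN WT and 291 with JUN AA, so that JUN WT also carried 15.6 times the JUN mRNA of JUN AA, and the loss of the sites and the lower JUN level cannot be told apart. JUN was at 57.1 FPKM without treatment, 55.3 in iCAFs and 21.1 after JNKi. All 8 fibroblast markers were above 8 FPKM in every library, with a summed level of 3906 to 5987 FPKM. The 7 epithelial markers summed to 19.7 to 56.2 FPKM, most of it from KRT8 and KRT18, while CDH1 and KRT5 were listed at 0 in every library. The endothelial markers summed to at most 0.31 FPKM, and of the leukocyte markers only CD68 was above 1 FPKM.

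Promoter windows were read to show what the members share at their start sites. RefSeq windows on GRCh38.p14 were matched for 7 members, with 9 windows in all, and were searched over the 250 bases upstream of the start on both strands. The AP-1 heptamer was searched as TGANTCA. This includes the usual site of JUN with FOS partners, TGACTCA or TGAGTCA, but also forms with another middle base. It was in 2 of the 9 windows and in 6.57% of all 35116 windows. The cAMP response element TGACGTCA, a known site of CREB and ATF factors but not of them alone, was in 1 of the 9 and in 1.65% of all. The 3 windows below belong to the ligands that differed in opposite directions in JUN WT, HBEGF and AREG, and to the only start of a member, the internal start of EGFR, with more than 1 heptamer. They are written 5′ to 3′ on the strand of the gene, with capitals for the motifs.
HBEGF, chr5:140346604-140346853, minus strand: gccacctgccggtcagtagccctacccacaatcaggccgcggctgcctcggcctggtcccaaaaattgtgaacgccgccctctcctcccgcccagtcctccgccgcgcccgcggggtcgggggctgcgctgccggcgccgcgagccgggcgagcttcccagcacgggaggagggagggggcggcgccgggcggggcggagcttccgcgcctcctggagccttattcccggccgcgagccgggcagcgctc
AREG, chr4:74444886-74445135, plus strand: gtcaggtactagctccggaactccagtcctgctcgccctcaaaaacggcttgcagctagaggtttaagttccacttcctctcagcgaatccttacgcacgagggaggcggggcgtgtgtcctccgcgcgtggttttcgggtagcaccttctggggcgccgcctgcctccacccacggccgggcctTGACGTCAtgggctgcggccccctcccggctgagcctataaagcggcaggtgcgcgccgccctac
EGFR internal start, chr7:55109589-55109838, plus strand: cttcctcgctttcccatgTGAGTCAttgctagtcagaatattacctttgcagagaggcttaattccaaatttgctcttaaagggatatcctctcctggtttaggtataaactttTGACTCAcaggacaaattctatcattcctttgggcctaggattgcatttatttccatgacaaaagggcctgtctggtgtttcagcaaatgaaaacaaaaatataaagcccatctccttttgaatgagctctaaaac
The HBEGF window held neither motif and had a GC content of 76.4%. The AREG window held the response element from -65, counted from the start site, and no heptamer. The EGFR window held TGAGTCA from -232 and TGACTCA from -136, while the window of the main EGFR start held neither. The other heptamer, TGATTCA, lay from -222 at ERBB2 and is not of the usual form. These are matches of letters in a short window, and which factors bind them was not tested.

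Among the EGFR ligands, HBEGF, whose heparin-binding product also serves as the receptor of diphtheria toxin, was at 1.51 FPKM with the empty vector, 5.64 with JUN WT and 1.36 with JUN AA. It was at 5.95 FPKM without treatment, 23.8 in iCAFs and 3.36 after JNKi. JUN WT and iCAFs were thus the high libraries of their tables, and iCAFs+JNKi, which also had tumour medium, was the lowest of its table. JUN WT had 3.73 times the HBEGF level of the control and 4.14 times that of JUN AA, while JUN AA and control differed by -0.089 on the log2 scale. It was 4.0 times higher in iCAFs than in MRC5 and 7.10 times lower in iCAFs+JNKi than in iCAFs. Of the 11780 genes in that table, 16 had a more negative difference with JNKi. CD68, a lysosomal marker of macrophages, was also highest with JUN WT, at 85.7 FPKM beside 32.6 and 31.1. The other leukocyte markers did not share this order. CD14 was at 0.62 FPKM with the empty vector, 0.24 with JUN WT and 0.13 with JUN AA, and PTPRC and CD3E were at or near 0. In bulk RNA, more cells with the transcript and more transcript per cell cannot be told apart. HBEGF lies on chromosome 5 of GRCh37, the build also called hg19, from 139712428 to 139726188.

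AREG, which encodes amphiregulin, had another order. It was at 24.9 FPKM with the empty vector, 5.29 with JUN WT and 12.1 with JUN AA, and so was lowest where HBEGF was highest. Relative to the control it was 4.70 times lower with JUN WT, with 32 of 10311 genes at a more negative difference, and 2.06 times lower in JUN AA, a difference of -0.98 on the log2(FPKM + 1) scale and so just short of the 2-fold limit set on that scale. In the second table AREG was at 1.97 FPKM without treatment, 71.8 in iCAFs and 117 after JNKi. It was 36.4 times higher in iCAFs than in MRC5, and only 9 genes had a higher difference. With JNKi it was not lower but 1.63 times higher, a log2 difference of 0.70. The summed epithelial markers, mostly KRT8 and KRT18, were also highest in the control, at 56.2 FPKM beside 21.6 with JUN WT and 19.7 with JUN AA. They were lowest with JUN AA, while AREG was lowest with JUN WT. In the second table these markers did not have the order of AREG either. Their sum there was 39.6 FPKM without treatment, 32.8 in iCAFs and 39.3 after JNKi. The part of these markers in the AREG differences was not tested. AREG lies on chromosome 4 from 75310853 to 75320722, and GRCh37 has a near-identical copy, AREGB, from 75480629 to 75490486. Of the 50-base windows of the AREG transcript, 95.8% are found unchanged in AREGB, so reads of these loci could be split by the counting and the AREG level is uncertain.

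EREG, which encodes epiregulin and neighbours AREG on chromosome 4 from 75230862 to 75254466, was at 1.59 FPKM with the empty vector, 3.74 with JUN WT and 0.95 with JUN AA. It was high in JUN WT like HBEGF, by 0.87 on the log2 scale against the control and by 1.28 against JUN AA. It was at 7.44 FPKM without treatment, 31.6 in iCAFs and 24.3 after JNKi. It was 4.24 times higher in iCAFs than in MRC5, and with JNKi it stayed 3.26 times above MRC5, at a log2 difference of -0.36 from iCAFs. TGFA, which encodes TGF-α, was listed at 0 with the empty vector and was at 0.064 FPKM with JUN WT and 0.042 with JUN AA. It was at 0.085 FPKM without treatment, 2.44 in iCAFs and 0.10 after JNKi. TGFA, on chromosome 2 from 70674416 to 70781325, passed the filter in neither table, so it was not counted, but iCAFs were the only library with more than 0.2 FPKM.

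**Figure D1:**
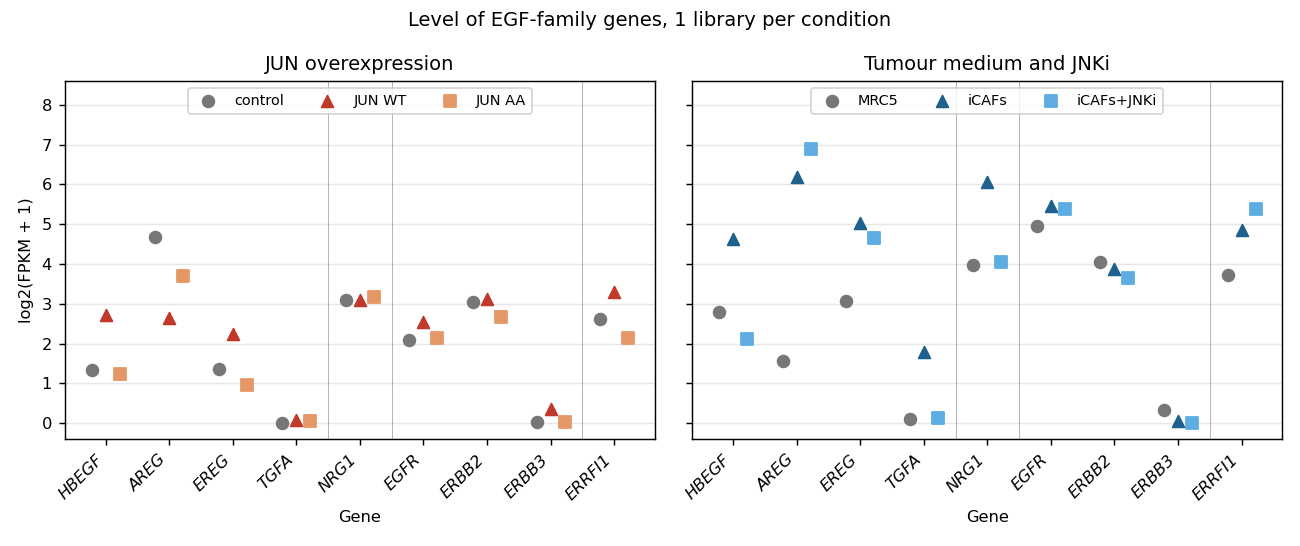
The level of each of the 9 genes, as log2(FPKM + 1) on the vertical axis, in each of the 3 libraries of the JUN overexpression table (left) and of the tumour medium table (right), 1 point per library and with no error bars because there are no replicates. In the tumour medium table HBEGF, TGFA and NRG1 were highest in iCAFs and back near or under MRC5 after JNKi, AREG, EREG and ERRFI1 stayed above MRC5 after JNKi, and ERBB3 was under 0.3 FPKM in every library.

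The mRNA of all 7 EGFR ligands (the 4 above with BTC, EPGN and EGF) was then summed per library. The sum was 29.1 FPKM with the empty vector, 16.3 with JUN WT and 17.4 with JUN AA. JUN WT thus had a sum 1.78 times lower than the control. This lower sum rested on AREG, at 24.9 FPKM with the empty vector and 5.29 with JUN WT. BTC was also lower with JUN WT, while HBEGF, EREG, TGFA, EPGN and EGF were higher. The composition of the sum also differed, with HBEGF at 34.5% of it in JUN WT, 5.20% in the control and 7.82% in JUN AA. AREG made up 85.5% with the empty vector, 32.4% with JUN WT and 69.4% with JUN AA. EPGN, which encodes epigen, was at 0.067 FPKM with the empty vector, 0.26 with JUN WT and 2.84 with JUN AA, and passed the filter only through JUN AA. In the second table the sum was 16.0 FPKM without treatment, 130 in iCAFs and 145 after JNKi. The sum was thus 8.14 times higher in iCAFs than in MRC5 and 1.12 times higher still with JNKi. This last step rested on AREG, since HBEGF, EREG and TGFA were lower with JNKi than in iCAFs. HBEGF was 37.3% of the sum without treatment, 18.3% in iCAFs and 2.31% after JNKi, while AREG was 12.4%, 55.2% and 80.6% in the same order. The sum is one of mRNA and carries the uncertainty of AREG.

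**Figure D2:**
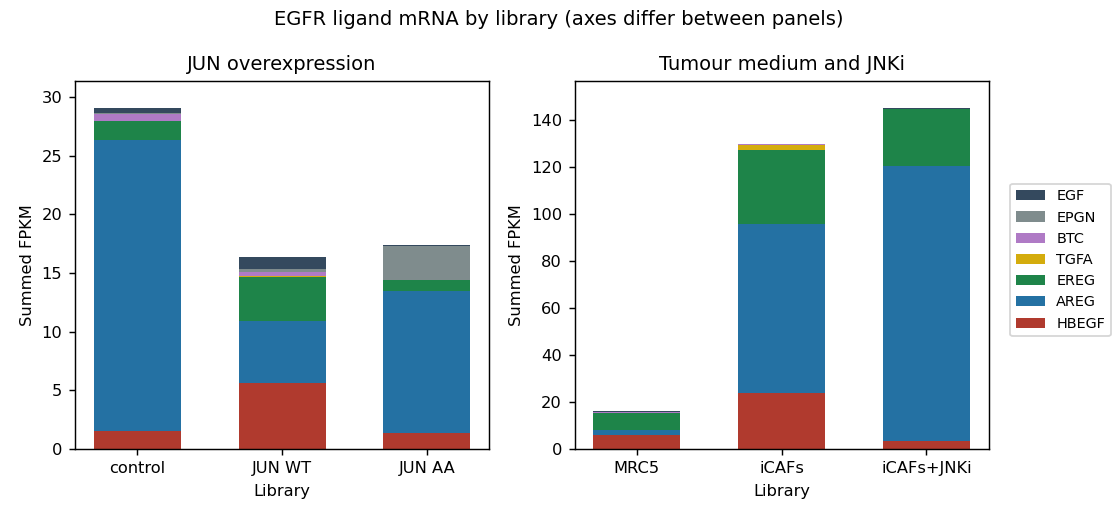
Summed FPKM of the 7 EGFR ligands in each library, with 1 colour per ligand and bars that start at 0, on a separate vertical axis for each table. AREG filled 85.5% of the control bar and 80.6% of the iCAFs+JNKi bar, and the HBEGF part was 5.64 FPKM in JUN WT and 23.8 FPKM in iCAFs.

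NRG1, which encodes neuregulin-1, did not follow JUN WT. It was at 7.55 FPKM with the empty vector, 7.51 with JUN WT and 8.03 with JUN AA. These 3 values lay within 0.085 of each other on the log2 scale. In the second table it was at 14.7 FPKM without treatment, 66.0 in iCAFs and 15.5 after JNKi. NRG1 was 4.50 times higher in iCAFs than in MRC5 and 4.25 times lower with JNKi than in iCAFs, where 35 genes had a more negative difference, which brought it to 0.078 from MRC5 on the log2 scale. NRG1 lies on chromosome 8 from 31496738 to 32713184 and shares 2024 of its 21372 annotated exon bases with other genes. NRG2, NRG3 and NRG4, its relatives, were under 0.5 FPKM in every library.

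Among the receptors, EGFR was at 3.23 FPKM with the empty vector, 4.84 with JUN WT and 3.42 with JUN AA. It was at 29.8 FPKM without treatment, 42.7 in iCAFs and 40.8 after JNKi. No EGFR difference reached 2-fold, and the widest was 0.50, in iCAFs against MRC5. The difference in JUN WT against control was 0.47, and it was 0.033 once the trend of all genes with transcript GC content was removed. ERBB2 was at 7.24 FPKM with the empty vector, 7.78 with JUN WT and 5.32 with JUN AA, and at 15.5 FPKM without treatment, 13.7 in iCAFs and 11.6 after JNKi. Its 6 differences lay between -0.39 and 0.47. ERBB3, the partner of ERBB2 for neuregulin, on chromosome 12 from 56470583 to 56497289, did not exceed 0.29 FPKM and was listed at 0 in iCAFs+JNKi, and ERBB4 was at most 0.062 FPKM. The known receptors of NRG1 were thus at or near 0 in these cells, whose EGFR and ERBB2 were the receptors of the family above 1 FPKM. EGFR lies on chromosome 7 from 55086710 to 55279321 and shares 186 exon bases with the antisense EGFR-AS1. ERBB2, on chromosome 17 from 37844167 to 37886679, shares 715 of its 10321 exon bases with neighbours.

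The feedback inhibitor ERRFI1 was at 5.15 FPKM with the empty vector, 8.81 with JUN WT and 3.40 with JUN AA. JUN WT was the high library, 1.71 times above the control and 2.59 times above JUN AA. With the GC trend removed, the difference from the control was 0.22 in place of 0.67, and that from JUN AA was 0.80 in place of 1.16 and so under the 2-fold limit, as it was when centred, at 0.97. ERRFI1 was at 12.3 FPKM without treatment, 28.1 in iCAFs and 41.1 after JNKi. It was 2.28 times higher in iCAFs than in MRC5 and a further 1.46 times higher with JNKi, the same order of libraries as AREG. ERRFI1 lies on chromosome 1 from 8064464 to 8086369 and shares 155 exon bases with another annotated gene.

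The order of levels within a library also differed between conditions. AREG was the highest of the 9 genes in the control, in JUN AA, in iCAFs and in iCAFs+JNKi. In JUN WT it was the fifth, at 5.29 FPKM, and ERRFI1, ERBB2 and NRG1 led at 8.81, 7.78 and 7.51 FPKM. In MRC5 EGFR led at 29.8 FPKM and AREG was the seventh. Without replicates it cannot be said which neighbours in these orders differ beyond error.

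Counted together, 7 of the 9 members passed the filter in each table, all but TGFA and ERBB3. In JUN WT against control, 1 was 2-fold higher (HBEGF) and 1 lower (AREG), beside 6.92% of all genes higher and 3.39% lower, and nothing is read from 1 gene on each side. The median difference was 0.47 over the 7 members and 0.15 over all genes, a shift that is part of every difference in JUN WT. The member median was 0.32 when centred and 0.22 with the GC trend removed. In JUN AA against control, 0 of 7 were 2-fold higher and 0 lower, beside 5.29% and 3.77% of all genes. In JUN WT against JUN AA, 3 were higher (HBEGF, EREG and ERRFI1) and 1 lower (AREG), beside 6.65% and 5.61% of all genes. ERRFI1 was under the limit when centred, at 0.97, and with the GC trend removed, at 0.80, and AREG was at -0.83 with rescaled FPKM. The comparisons within a table share libraries, so their counts are not independent.

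In iCAFs against MRC5, 5 of the 7 members were 2-fold higher (HBEGF, AREG, EREG, NRG1 and ERRFI1) and 0 lower, beside 1.94% and 1.71% of all genes. The median difference of the 7 members was 1.84, and that of all genes -0.061. Between iCAFs+JNKi and iCAFs, 0 members were higher with JNKi and 2 lower (HBEGF and NRG1), beside 2.25% and 1.97% of all genes, with medians of -0.22 and -0.099. In iCAFs+JNKi against MRC5, 3 were higher (AREG, EREG and ERRFI1) and 0 lower, beside 3.28% and 3.53% of all genes. The members were taken from a known family with earlier results in view, and these shares describe the libraries without a test.

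The balance of higher and lower genes behind these shares depended on scaling. Of the genes past 2-fold, 67.1% were higher in JUN WT against control, and 45.5% with differences centred on the median gene. The share was 58.4% in JUN AA against control, and 26.9% after rescaling each library to 1000000 FPKM. In JUN WT against JUN AA it was 54.3%, 82.5% rescaled and 33.3% centred. For iCAFs+JNKi it was 53.3% relative to iCAFs and 48.1% relative to MRC5, and 64.0% and 65.9% centred. HBEGF stayed past 2-fold with JUN WT against control under each of these scalings, and its difference there was 1.25 when centred and 1.11 with the GC trend removed.

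**Figure D3:**
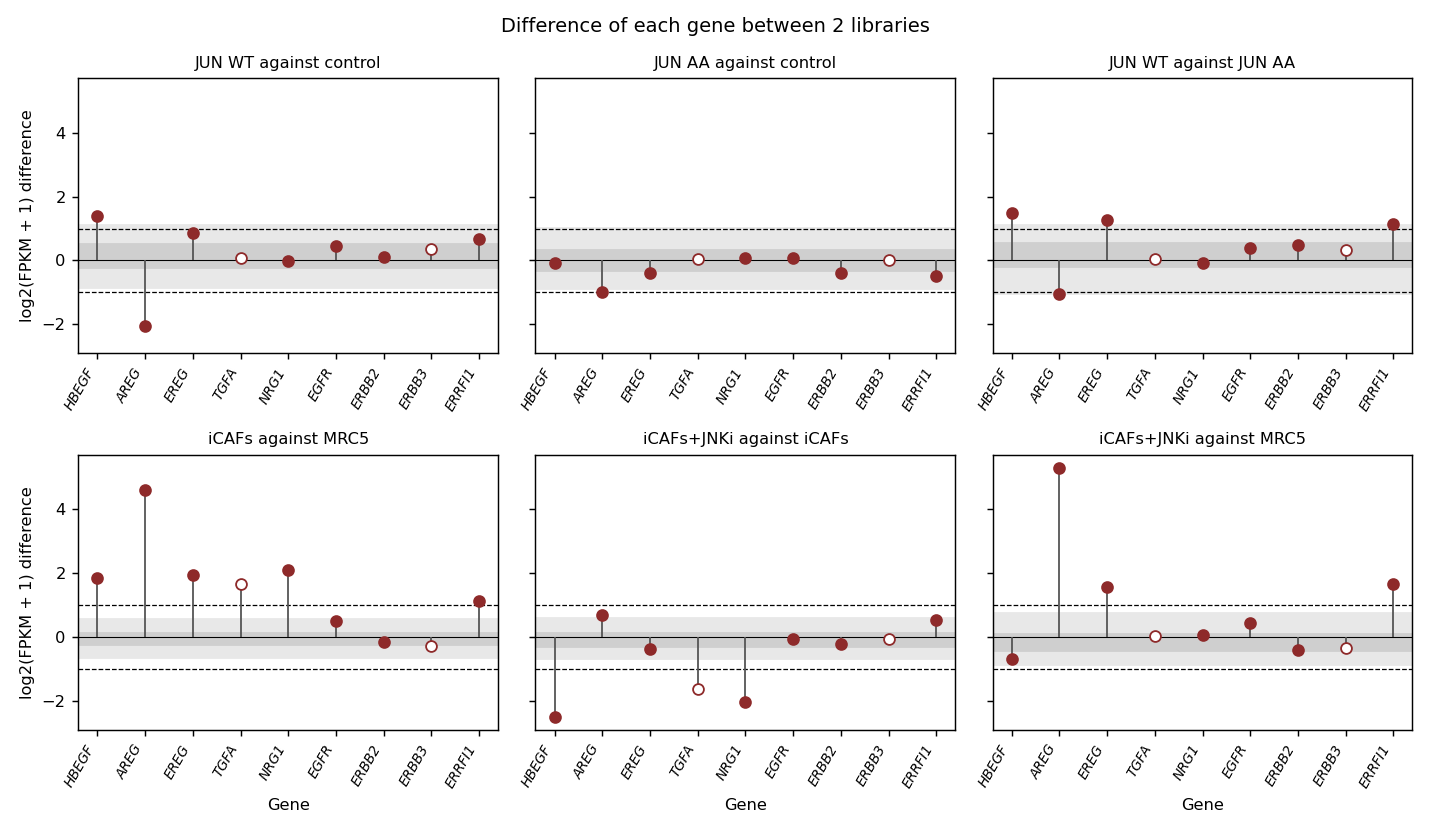
The log2(FPKM + 1) difference of each of the 9 genes in the 6 comparisons, 1 panel each, where filled points passed the filter of 1 FPKM and open points did not. Dashed lines mark 2-fold, and the dark and light grey bands hold the middle 50% and 90% of all genes tested. HBEGF was at 1.40 in JUN WT against control and at -2.51 in iCAFs+JNKi against iCAFs, and AREG was at -2.04 and 0.70 in the same panels.

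Genes around the receptor were described from lists of known roles. The list for ligand release held 9 genes, the ADAM sheddases and the iRhom partners of ADAM17. Of these, 7 passed the filter in the first table and 0 were 2-fold different in JUN WT or in JUN AA against control. Of all genes, 6.92% were higher and 3.39% lower in JUN WT, and 5.29% and 3.77% in JUN AA, so nothing is read from 0 of 7. In the tumour medium experiment 8 of the 9 passed, and ADAM12 and ADAM19 were 2-fold higher in iCAFs than in MRC5, beside 1.94% of all genes. Of the 8, 4 were above 0 and 4 below, with a median difference of 0.10 beside -0.061 over all genes. ADAM19 was at 14.9 FPKM without treatment, 33.0 in iCAFs and 76.4 after JNKi, and ADAM12 was at 1.64, 5.10 and 9.48 FPKM. Both were thus highest with JNKi, like AREG. ADAM17, the main sheddase of EGFR ligands, was between 8.20 and 9.76 FPKM in that table.

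Of 8 attenuators of these receptors, LRIG1, a membrane protein that promotes receptor breakdown, was at 8.63 FPKM without treatment, 11.97 in iCAFs and 4.02 after JNKi. LRIG1 was the single gene of that list past the 2-fold limit with JNKi against iCAFs, and was lower, beside 1.97% of all genes. CBLB, a ubiquitin ligase, was 2.21 times higher in FPKM in that comparison, but under the limit at 0.91 on the log2(FPKM + 1) scale. It was 2.45 times higher in iCAFs+JNKi than in MRC5 and past the limit, where 3.28% of all genes were 2-fold higher. No attenuator was past 2-fold in the first table, where 3.39% to 6.92% of all genes were past it in each direction. Of 15 adaptors and kinases described here from the RAS-ERK chain, 14 passed the filter in the first table, and the kinase gene MAP2K1 was higher with JUN WT than with the empty vector by this limit, beside 6.92% of all genes. The median difference of the 14 was 0.048, and that of all genes 0.15. MAP2K1 was at 11.7 FPKM with the empty vector, 26.4 with JUN WT and 12.9 with JUN AA. Of the 15, 0 were past 2-fold in any comparison of the second table, beside 1.71% to 3.53% of all genes in each direction. Nothing is read from these 0 counts.

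ERK activity was not measured, and the mRNA of 10 genes known to respond to it was described as a list. In JUN WT against control, SPRY2 and CCND1 of the 9 that passed the filter were 2-fold higher and 0 were lower, beside 6.92% and 3.39% of all genes. The median difference of the list was 0.53 and that of all genes 0.15, and the list was at 0.072 with the GC trend removed. SPRY2, an inhibitor of receptor signalling, was at 4.05 FPKM with the empty vector, 18.9 with JUN WT and 6.59 with JUN AA. In JUN AA against control only EPHA2 was past 2-fold, and was lower, beside 3.77% of all genes. Between JUN WT and JUN AA, SPRY2, DUSP6 and CCND1 were 2-fold higher with JUN WT, by 1.39, 1.27 and 1.10 on the log2 scale. None were 2-fold lower, and 6.65% of all genes were higher and 5.61% lower there. The list median in that comparison was 0.80 beside 0.18 over all genes, and it was 0.37 with the GC trend removed. CCND1, which encodes cyclin D1, was at 85.5 FPKM with the empty vector, 177 with JUN WT and 81.6 with JUN AA. In iCAFs against MRC5, PHLDA1 alone was 2-fold higher, beside 1.94% of all genes, and the median difference was 0.18 beside -0.061 over all genes. With JNKi, all 10 genes were lower than in iCAFs, beside 7372 of all 11780 genes tested. Of the 10, 9 were lower when differences were centred, when FPKM were rescaled or when the GC trend was removed. The median difference of the list was -0.51, and that of all genes -0.099. SPRY2 was the single gene of the 10 past 2-fold, at 40.5 FPKM without treatment, 30.5 in iCAFs and 8.90 after JNKi. DUSP6, the ERK phosphatase, was at 28.6, 39.2 and 20.1 FPKM in that order. The EGFR ligand sum was higher and this list lower in iCAFs+JNKi than in iCAFs. The higher sum rested on AREG, at 71.8 FPKM in iCAFs and 117 after JNKi, a level that is uncertain. HBEGF, EREG and TGFA were lower with JNKi. The sum and the list are both mRNA levels, and a link between them was not tested.

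**Figure D4:**
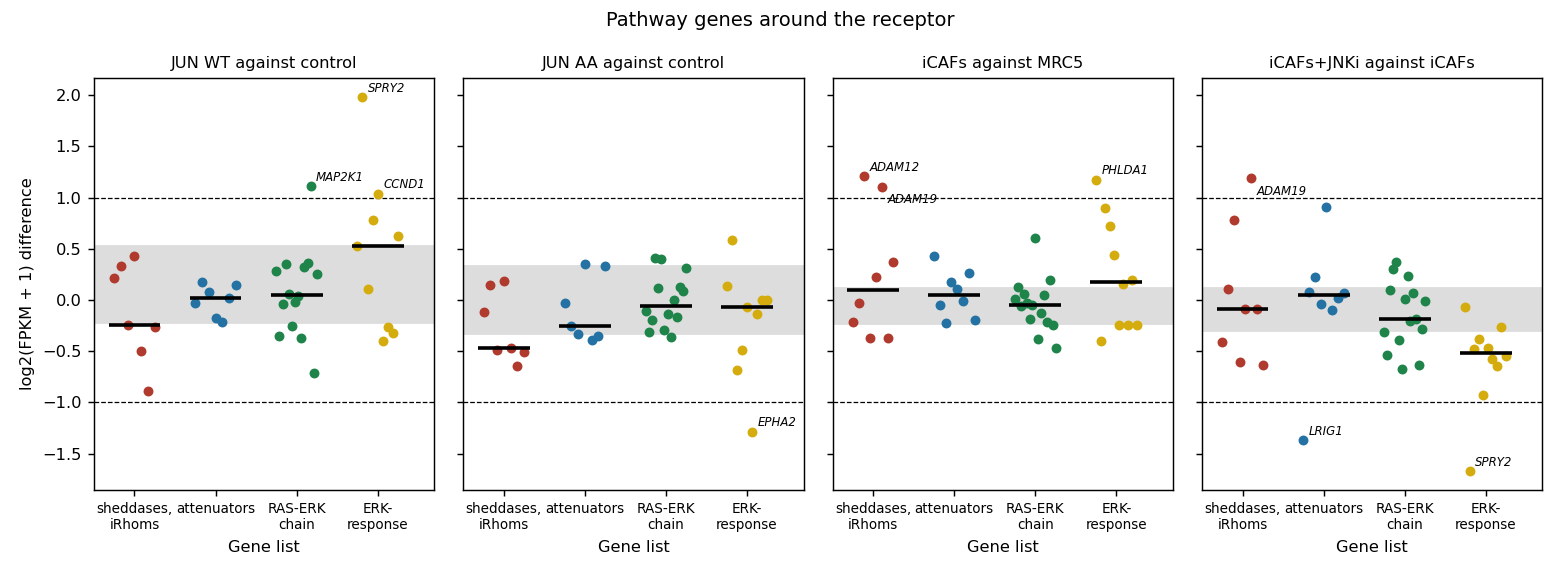
The log2(FPKM + 1) difference of each gene of 4 pathway lists in 4 comparisons, 1 point per gene that passed the filter, with the black bar at the median of the list, the grey band over the middle 50% of all genes tested and dashed lines at 2-fold. The ERK-response genes had a median of 0.53 in JUN WT against control and of -0.51 in iCAFs+JNKi against iCAFs.

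For the 5 members that passed the filter in both tables and were past 2-fold in at least 1 comparison, the genes most like them were found by the Euclidean distance over 4 differences (JUN WT and JUN AA against control, iCAFs against MRC5, iCAFs+JNKi against iCAFs) among 10019 other genes that passed the filter in both tables. The 4 differences share libraries in pairs, so this distance is a description. Nearest to HBEGF were G0S2 at 0.46, the IL-1 receptor kinase gene IRAK2 at 0.51 and the hyaluronan synthase gene HAS2 at 0.89. IRAK2, for example, had differences of 1.11, -0.14, 1.97 and -2.12. Nearest to NRG1 were IER3 at 0.55, CYP1B1 at 0.68 and SNHG9 at 0.93. Nearest to EREG were the BMP antagonist gene GREM1 at 0.52, ENC1 at 0.68 and CDK2 at 0.69, and nearest to ERRFI1 were PDIA4 at 0.38, ANTXR1 at 0.40 and NPC1 at 0.61. AREG had no gene within a distance of 1.84, that of IGFBP3, and ID3 and ID1 followed at 1.90 and 2.01.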

How the data were processed

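Reads were aligned by the authors (HISAT2 2.1.0, hg19), who deposited FPKM per gene computed in StringTie 2.1.1, in 2 tables of 25370 rows with 1 library per condition. The annotation, strand setting and number of reads are not given in the sources used here, so depth and precision are unknown. Tests for counts could not be applied to these values. Of rows that shared a symbol, the one with the highest mean was kept.

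The members and lists were chosen with earlier results of these data known. From the FPKM, log2(FPKM + 1) differences were computed for 6 comparisons with Python 3.11.15, numpy 2.4.6 and pandas 2.3.3, and plotted with matplotlib 3.10.9. The procedure was run on simulated data with planted changes wider than 2-fold in genes of at least 5 FPKM. This checks the computation and says nothing of lower genes or of the error in these libraries. Named genes are the 9 members, JUN, list genes past 2-fold and the 3 genes nearest to each member that passed the filter in both tables and was past 2-fold in at least 1 comparison. Genes outside this rule (BTC, EGF, the neuregulins, ERBB4, ADAM17 and the markers) were named after their values were seen. The search for the cAMP response element was also added then.

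As alternatives, the pseudocount was set to 0.1, each library was rescaled to 1000000 FPKM, differences were centred on the median gene, the filter was left out or set to 5 FPKM, and the median difference was removed in 20 bins of transcript GC content, known for 91.1% and 90.4% of the tested genes. A log2 value was taken to have moved at 0.25. Gene positions and shared exon bases come from GENCODE on GRCh37, the same assembly as hg19. Promoter windows are those of RefSeq on GRCh38.p14 and were not joined to GRCh37 coordinates. Protein sequences were not used here, and 1 gene of the pathway lists is not reported here and is left out of their counts.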

Additional observations from a re-analysis of the deposited data

How the results depend on the processing

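No setting turned the direction of a member difference past 2-fold. Of 54 member differences, 17 moved by 0.25 or more with a pseudocount of 0.1, 20 with rescaled FPKM, 13 with the GC trend removed and 0 when centred. Rescaling also raises the FPKM values and so lowers the weight of the pseudocount. In JUN WT against control, 2 members were 2-fold higher with a pseudocount of 0.1 or rescaled FPKM (HBEGF and EREG) and 0 at a filter of 5 FPKM, which HBEGF does not pass. In JUN AA against control, AREG made 1 lower with a pseudocount of 0.1 or rescaled FPKM. In JUN WT against JUN AA, 1 was higher at a filter of 5 FPKM (ERRFI1) and 0 lower with rescaled FPKM, where AREG was at -0.83. The ERRFI1 difference there was 0.97 when centred and 0.80 with the GC trend removed. With rescaled FPKM the log2 ratio of the EGFR ligand sum was -1.05 in JUN AA against control and 0.21 in JUN WT against JUN AA, from -0.74 and -0.090. List medians in these comparisons also moved when rescaled, to -0.78 and 0.53 for the sheddases, -0.53 and 0.47 for the attenuators, -0.32 and 0.34 for the RAS-ERK chain, -0.37 and 1.14 for the ERK-response genes and 2.31 and -1.89 for EPGN, the single further family gene past the filter. Counts of all genes higher and lower at 2-fold were 714 and 350 in JUN WT against control, and 436 and 522 centred. They were 545 and 389 in JUN AA against control, 686 and 578 in JUN WT against JUN AA, 228 and 202 for iCAFs relative to MRC5, 386 and 416 for iCAFs+JNKi relative to MRC5, and 265 and 232 in iCAFs+JNKi against iCAFs. With rescaled FPKM they were 379 and 1031, 1912 and 405, 347 and 347, 706 and 498, and 531 and 301 in that order. Centred, they were 411 and 822 in JUN WT against JUN AA, and 517 and 267 in iCAFs+JNKi against MRC5. Differences of genes under 1 FPKM, such as TGFA and ERBB3, depend on the pseudocount, and no number of reads is known to set their precision.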
